A study of Homo sapiens with 20 samples.

Results

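WM793 is a human melanoma line taken from a vertical growth phase tumour. The series holds derivatives of it described as overexpressing NME1 constructs, and the contrast described here sets the line with wild-type NME1 against 3 lines with point mutants of the same protein. Its members are 16 of the 20 arrays of the series: 4 from NME1-wild-type cells, and 4 each from NME1-E5A, NME1-K12Q and NME1-P96S cells. The value for every gene is the mean of the NME1-wild-type arrays minus the mean of the 3 mutant line means, so each mutant line has equal weight. The 4 arrays of the Parent line have weight 0 in the difference, but take part in the estimate of the spread between arrays. All lines were grown for 3 days, and total RNA was labelled with biotin and hybridised to Affymetrix Human Exon arrays. Every line was arrayed in technical replicate, and a construct has 1 line only, which the labels call neither a clone nor a pool. Parent is WM793 itself. The p-values therefore measure the spread between arrays, and a difference between constructs cannot be told apart from a difference between individual lines.

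NME1 is a nucleoside diphosphate kinase, an enzyme that moves phosphate between nucleotides, and was the first gene described as a suppressor of metastasis. The protein can also act as an exonuclease on DNA and can pass phosphate to histidine on other proteins. In earlier biochemical work the E5A change has been described as removing the exonuclease function, the K12Q change as impairing both the kinase and the exonuclease functions, and the P96S change, which corresponds to the killer-of-prune mutation of the fly gene, as impairing transfer to histidine in proteins. Melanoma cells of the neural crest lineage usually express SOX10 and S100B, and those that have kept their pigment programme also express genes such as MLANA, PMEL and TYRP1.

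The promoter windows of 3 loci on which the results turn are shown first. They run from 250 bases before to 50 bases after the annotated start, and are RefSeq sequences on GRCh38.p14. XAGE1A stands for the 5 array rows that moved together, and its window is identical over 300 of 300 bases to that of XAGE1B (chrX:52516963-52517262, minus strand), a copy annotated to the same rows. NETO2 had the smallest p-value and CXCL11 the largest difference among the features that passed the test. Capitals mark CG dinucleotides in the first pair, and matches to an AP-1 motif and an NF-kappaB motif in the third.
NETO2, chr16:47143896-47144195, minus strand: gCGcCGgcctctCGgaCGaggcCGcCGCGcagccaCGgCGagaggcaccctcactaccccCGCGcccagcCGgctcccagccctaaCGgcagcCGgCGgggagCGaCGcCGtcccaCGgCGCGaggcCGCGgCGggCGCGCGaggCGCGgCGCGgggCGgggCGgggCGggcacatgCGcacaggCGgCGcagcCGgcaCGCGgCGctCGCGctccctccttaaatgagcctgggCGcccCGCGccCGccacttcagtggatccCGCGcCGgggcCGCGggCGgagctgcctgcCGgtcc
XAGE1A, chrX:52495627-52495926, plus strand: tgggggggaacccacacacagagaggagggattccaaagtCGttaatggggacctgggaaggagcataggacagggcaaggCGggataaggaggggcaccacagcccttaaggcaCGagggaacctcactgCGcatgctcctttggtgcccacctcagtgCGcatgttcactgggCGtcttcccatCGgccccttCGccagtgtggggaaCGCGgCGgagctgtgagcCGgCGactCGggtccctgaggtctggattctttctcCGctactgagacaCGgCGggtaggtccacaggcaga
CXCL11, chr4:76036021-76036320, minus strand: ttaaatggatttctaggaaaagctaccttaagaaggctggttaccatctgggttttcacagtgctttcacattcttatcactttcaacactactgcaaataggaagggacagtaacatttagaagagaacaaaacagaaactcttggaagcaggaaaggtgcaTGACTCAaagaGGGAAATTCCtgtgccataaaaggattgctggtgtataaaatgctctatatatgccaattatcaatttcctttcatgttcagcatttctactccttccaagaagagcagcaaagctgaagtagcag
The NETO2 window holds 54 CG dinucleotides, more than 99.5% of the 35116 windows in the table, the XAGE1A window holds 17 and the CXCL11 window 0, as 3.96% of windows do. Both strands were searched for the AP-1 motif TGANTCA, and for the NF-kappaB and interferon response motifs. In the CXCL11 window TGACTCA lies at bases 164 to 170 and GGGAAATTCC at bases 175 to 184, with no overlap. It holds no exact match to the interferon response motif, which is found in 3.57% of windows. Sites that differ from the letters of that motif were not searched for, so the absence of an interferon response element is not shown. TGACTCA also lies at bases 289 to 295 of a TRIML2 window that is not shown. The AP-1 motif is found in 7.71% of windows, an NF-kappaB motif in 1.61% and both in 0.125%, and these matches are a description of the letters.

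In cells with wild-type NME1, 14 of 18384 features passed the test (limma, adjusted p under 0.05 and at least 1.5-fold), which is 0.0762%, and all of them were higher than in the mutant lines. They were 9 single genes and 5 rows of the XAGE1 cancer-testis antigens. The single genes were CXCL11, NETO2, TRIML2, EREG, SPP1, MAGEA1, LRP1B, MMP3 and THY1, by order of the log2 difference. No feature was lower in NME1-wild-type cells by the same criteria. In either direction 349 features (1.9%) had an unadjusted p under 0.05, where chance alone gives about 5%, so this count is no sign of further differences. When the 4 line means were taken as the samples, 1 against 3, limma passed 0 features. There 954 had an unadjusted p under 0.05, close to the share that chance gives. When the test was made against a 1.5-fold change itself, the count was 2, and these were NETO2 and TRIML2. Without NME1-wild-type replicate 1 or without NME1-wild-type replicate 2 the count was 8 in place of 14. Without the NME1-K12Q line it was 23.

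The volcano plot shows these features in the top right, against a body of features close to 0. Over all features the median difference was 0.02 on the log2 scale and the SD was 0.127, and 57.8% of differences were above 0. That share was 47.1% with quantile normalisation and 49.1% with arrays centred on their median, and the features that passed, 12 and 13, were all higher in both settings.

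**Figure D1:**
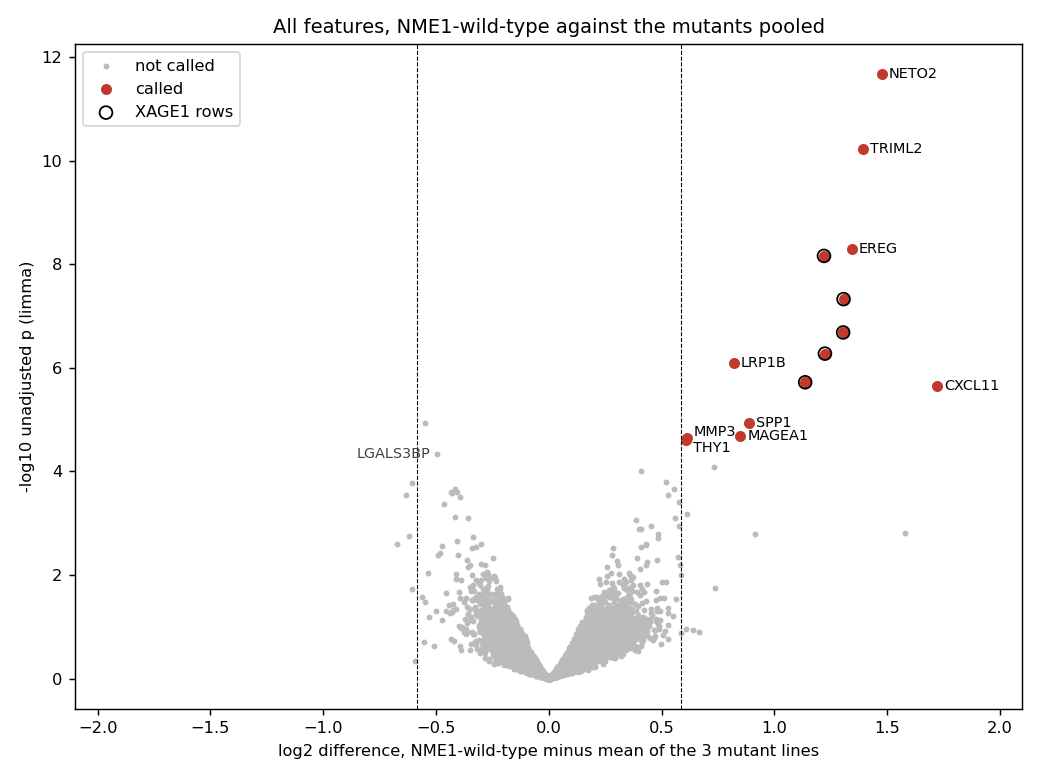
Log2 difference, NME1-wild-type minus the mean of the mutant lines, on the x axis against the unadjusted limma p-value (−log10 scale) on the y axis, with 1 point for each of 18384 features. The 14 features that passed the test are coloured and all lie right of 0.

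Most arrays of the 16 members were alike, but NME1-P96S replicate 3 stood apart from its line. Its r was 0.931 with P96S replicates 1 and 2 and 0.969 with replicate 4, against 0.988 with NME1-K12Q replicate 2. Pearson's r over all features was 0.931 to 0.995 between arrays of 1 line and 0.95 to 0.995 between arrays of different lines. The interquartile range of the log2 values was 2.64 to 2.87 on the NME1-wild-type arrays and 2.33 to 3.16 on the mutant arrays, so some mutant arrays had a narrower or wider scale. The narrowest was NME1-P96S replicate 3 (2.33), and the widest were NME1-P96S replicates 1 and 2 (3.12 and 3.16). Within the NME1-wild-type line, replicates 1 and 2 were more alike (r = 0.992), as were replicates 3 and 4 (r = 0.995), than arrays across these pairs (r = 0.983 to 0.987). The number of arrays limits the precision. SOX10 averaged 9.36 in NME1-wild-type cells and 9.41 over the mutant lines, and S100B averaged 8.61 in both. MLANA, PMEL and TYRP1 were low on the array in NME1-wild-type cells, at 3.64, 4.63 and 4.56. Over the mutant lines they averaged 3.71, 4.68 and 4.00. Other genes of the melanocyte list were not all low, with RAB27A at 7.47, MITF at 5.72 and GPR143 at 5.23 in NME1-wild-type cells. No leukocyte, endothelial or keratinocyte marker passed the test, where 0.0762% of all features did, so these counts say nothing particular to them. Of the fibroblast markers, THY1 passed.

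NME1 itself was compared first. Every line of the contrast is described as overexpressing an NME1 construct, so this comparison cannot check which construct a line holds. The array row annotated to NME1 and to the NME1-NME2 read-through had 9.81, 9.86, 9.83 and 9.75 on the NME1-wild-type arrays. The mutant arrays had 9.69, 9.77, 9.94 and 9.72 with E5A, 9.45, 9.93, 9.89 and 9.74 with K12Q and 9.63, 9.87, 9.86 and 9.76 with P96S. The groups overlapped, and the difference of 0.04 had p = 0.604 when the 4 and 12 arrays were permuted exactly (two-sided, smallest possible p 0.000549). Parent arrays had 9.37, 9.40, 9.74 and 9.59, which overlapped with each mutant line, and the NME1-wild-type mean was 0.28 above the Parent mean. The row reads the endogenous transcript and any construct sequence it shares, so it does not show how much protein each line made. The row of NME2, a close relative, differed by 0.10 (exact permutation p = 0.185). The other 6 measured genes of the NME family include the mitochondrial NME4 and the less studied NME3 and NME6. Their differences were 0.00 to 0.16, and 0 of 6 passed, where 0.0762% of all features did.

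NETO2 encodes an accessory subunit of kainate-type glutamate receptors. On the NME1-wild-type arrays it had 6.62, 6.47, 6.79 and 6.96. The mutant arrays had 4.46, 4.57, 4.35 and 4.60 with E5A, 5.73, 5.60, 5.74 and 5.75 with K12Q and 5.58, 5.64, 5.24 and 5.55 with P96S. Every NME1-wild-type array lay above every mutant array, with a gap of 0.722 between the groups. E5A was the lowest line and low on the array, so a level above background is not shown for it, and the pooled fold includes it. NETO2 was 1.48 higher on the log2 scale, or 2.79-fold (SE 0.0965, adjusted p = 3.89e-08). The difference was 2.22 from E5A, 1.01 from K12Q and 1.21 from P96S, 3 values that share the NME1-wild-type arrays. Parent arrays covered 5.54 to 5.68, and the NME1-wild-type mean was 1.11 above the Parent mean. The other measured genes of the kainate receptor list, 6 of 7, did not pass, GRIK2 at −0.19 and GRIK5 at 0.05 among them. NETO2 also stands on a list of 10 motility genes reported as repressed by NME1, where it was the 1 member that passed, in the direction opposite to the list's name, while MMP2, a secreted gelatinase, was at −0.24 and CCN2, a matricellular growth factor, at 0.26.

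TRIML2, a tripartite-motif family-like gene described as a p53 target, had 8.20, 7.84, 7.68 and 7.61 in NME1-wild-type cells. In the mutant lines it had 6.82, 6.85, 6.77 and 6.52 with E5A, 6.91, 6.60, 6.44 and 6.63 with K12Q and 6.02, 5.98, 5.79 and 5.89 with P96S. Again no array of the mutants reached the lowest NME1-wild-type array, and P96S was the lowest line. The log2 difference was 1.39, or 2.63-fold (SE 0.110, adjusted p = 5.49e-07), and by line it was 1.09 from E5A, 1.18 from K12Q and 1.91 from P96S. Against Parent the NME1-wild-type mean was 1.35 higher. TRIML2 was the 1 member of 17 measured p53 targets that passed. The list's median was 0.03, and BAX, a pro-apoptotic gene, was at 0.13 and TNFRSF10B, a death receptor, at −0.01.

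LRP1B is a large endocytic receptor of the low-density lipoprotein receptor family. Its values were 4.51, 4.60, 4.60 and 4.41 on the NME1-wild-type arrays, against 3.44 to 4.02 (median 3.71) on the 12 mutant arrays. The groups were apart by 0.391, and the mutant lines were close to each other, with averages of 3.72 ± 0.07 for E5A, 3.79 ± 0.13 for K12Q and 3.62 ± 0.27 for P96S (SD, n = 4 each). The log2 difference was 0.82 (SE 0.116, adjusted p = 0.00181). By line it was 0.81 from E5A, 0.74 from K12Q and 0.91 from P96S, and LRP1B was low on the array in every line. Its mutant mean of 3.71 equalled that of the pigment marker MLANA (3.71), and the files give no detection call, so a mutant level above background is not shown and no fold is given. Of the other 10 measured members of the receptor family, 0 passed, LRP12 at −0.14 and LRPAP1, a receptor chaperone, at −0.04 among them.

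Cancer-testis antigens are genes active in germ cells and in some melanomas. MAGEA1 had 5.95, 6.02, 5.70 and 5.65 in NME1-wild-type cells, against 4.63 to 5.22 (median 4.95) in the mutant lines. The groups did not overlap, and the log2 difference was 0.85 (SE 0.153, adjusted p = 0.0294). It was alike against each line, at 0.91 from E5A, 0.80 from K12Q and 0.84 from P96S. Mutant levels were near those of the leukocyte genes CD3E (4.62) and CD79A (5.14) over the mutant lines. With no detection call, a mutant level above background is not shown and no fold is given. One Parent array, at 5.97, was inside the NME1-wild-type range. The difference stayed between 0.785 and 0.910 when 1 array was left out, but the call was lost in 11 of 20 such fits, and without the E5A or the P96S line.

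The 5 XAGE1 rows are annotated to the same near-identical copies XAGE1A to XAGE1D, so they are not independent measurements of separate genes. Row 4008819 had 6.96, 7.41, 6.82 and 6.80 on the NME1-wild-type arrays. The mutant arrays had 5.77, 5.91, 5.88 and 5.94 with E5A, 5.77, 6.11, 5.96 and 5.96 with K12Q and 5.08, 4.79, 5.89 and 5.25 with P96S, with P96S the lowest line. Its log2 difference was 1.31 (2.47-fold, SE 0.153, adjusted p = 0.000172). With no detection call, a level above background is not shown for P96S, which enters this fold. Rows 3978005, 4008802, 3977862 and 4008710 had differences of 1.31, 1.22, 1.22 and 1.14, with adjusted p-values of 0.000631, 3.15e-05, 0.00139 and 0.00386. Row 4008710 did not pass without NME1-wild-type replicate 1, without NME1-wild-type replicate 2 or without the P96S line, where its difference was 0.945. In each of the 5 rows all NME1-wild-type arrays were above all mutant arrays. Of the 7 cancer-testis genes with a row of their own, MAGEA1 was the 1 that passed. The list's median was −0.08, MAGEA10 was at 0.31 and CTAG2 at −0.04.

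The plot of levels by array shows the features that passed, line by line, and which of them had NME1-wild-type arrays clear of the mutants. This held for 9 of the 14 features: NETO2, TRIML2, LRP1B, MAGEA1 and the 5 XAGE1 rows. Among all features, 12 (0.0653%) had every NME1-wild-type array above every mutant array, and 4 (0.0218%) had every one below, 16 in all (0.087%).

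**Figure D2:**
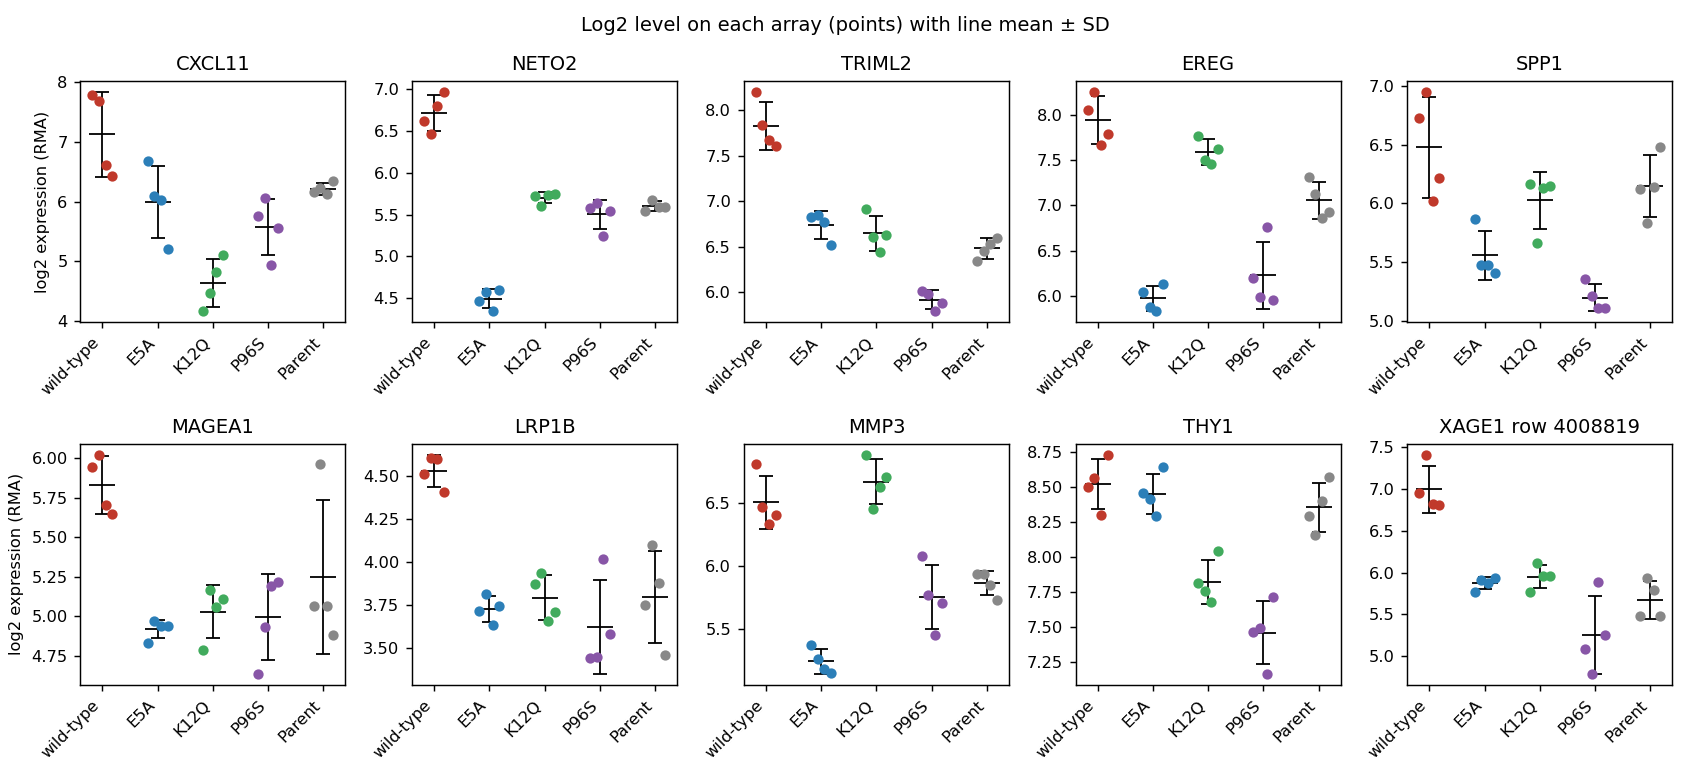
Log2 level on the y axis in every array for the 9 genes that passed the test and for XAGE1 row 4008819, with lines on the x axis in the order NME1-wild-type, E5A, K12Q, P96S and Parent. Points are arrays and bars are line means ± SD. NETO2, TRIML2, LRP1B, MAGEA1 and the XAGE1 row have NME1-wild-type arrays above all mutant arrays, while those of MMP3 overlap with K12Q and those of THY1 with E5A.

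The remaining single genes encode secreted or surface proteins. EREG (epiregulin), a ligand of the EGF receptor, had 8.05, 8.25, 7.67 and 7.79 in NME1-wild-type cells. It had 6.04, 5.89, 5.83 and 6.13 with E5A, 7.77, 7.50, 7.45 and 7.62 with K12Q and 6.20, 5.99, 6.76 and 5.96 with P96S. K12Q was close to the NME1-wild-type level and the other two lines were well below it, and 3 of 4 NME1-wild-type arrays were above all mutant arrays. Parent arrays had 6.86 to 7.31, above every E5A and P96S array and below every K12Q and NME1-wild-type array. The pooled difference was 1.34 (2.54-fold, SE 0.137, adjusted p = 3.08e-05), made up of 1.96 from E5A, 0.35 from K12Q and 1.71 from P96S. Among the 10 measured EGF ligands and receptors, EREG was the 1 that passed, with ERBB3, a heregulin receptor, at −0.36 and ERBB2 at −0.10.

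CXCL11 is an interferon-inducible chemokine that binds the receptor CXCR3. It had 7.79, 7.68, 6.61 and 6.43 in NME1-wild-type cells, with replicates 1 and 2 above 3 and 4 by more than 1 log2 unit. The mutant lines had 6.67, 6.10, 6.03 and 5.21 with E5A, 4.16, 4.46, 4.82 and 5.10 with K12Q and 5.75, 6.06, 4.94 and 5.56 with P96S. The pooled difference was 1.72 (3.30-fold, SE 0.262, adjusted p = 0.00405), the largest among the features that passed. K12Q was the lowest line (2.49) and E5A the nearest (1.13). Parent arrays had 6.12 to 6.34, below every NME1-wild-type array and above every mutant array except NME1-E5A replicate 1. K12Q was low on the array, so a level above background is not shown for it, and the pooled fold includes it. 2 of 4 NME1-wild-type arrays were above all mutant arrays, and CXCL11 did not pass without NME1-wild-type replicate 1 or without NME1-wild-type replicate 2, nor without the K12Q line, where the difference was 1.34. SPP1 (osteopontin), a secreted matrix phosphoprotein, had the same split in the NME1-wild-type line, with 6.73, 6.95, 6.02 and 6.22. Its mutant arrays had 5.11 to 6.17 (median 5.48), and the difference of 0.89 (1.85-fold, SE 0.152, adjusted p = 0.0181) was likewise not called without either of those replicates, with quantile normalisation (0.88) or without the P96S line (0.687). Parent arrays of SPP1 had 5.84 to 6.48, which overlapped with the NME1-wild-type arrays.

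The chemokine and inflammatory cytokine list had 18 measured members, of which CXCL11 alone passed. 13 of the 18 were above 0, against 57.8% over all features, and the median was 0.22, with 0.18 from E5A, 0.19 from K12Q and 0.24 from P96S, 3 values that share the NME1-wild-type arrays. IL1B, a pro-inflammatory cytokine, was at 0.25 and CCL2, a chemokine for monocytes, at 0.27, and neither passed. Of 22 interferon-stimulated genes 0 passed, where 0.0762% of all features did. Of the same genes 18 were above 0, with a median of 0.09, which was 0.00 without the P96S line. IFI6 was at 0.34 and IFIT3 at −0.01.

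MMP3 (stromelysin), a secreted matrix protease, had 6.80, 6.46, 6.33 and 6.40 in NME1-wild-type cells. It had 5.38, 5.27, 5.19 and 5.16 with E5A, 6.88, 6.45, 6.62 and 6.70 with K12Q and 6.08, 5.77, 5.46 and 5.71 with P96S. K12Q was at or above the NME1-wild-type level, so no NME1-wild-type array was above all mutant arrays. MMP3 was the 1 feature of the 14 for which the NME1-wild-type line mean was not above each mutant line mean. The pooled difference was 0.61 (1.53-fold, SE 0.111, adjusted p = 0.0298), just inside the fold threshold, with 1.25 from E5A, −0.16 from K12Q and 0.75 from P96S. The call was lost in 10 of 16 other settings and in 13 of 20 fits that left out 1 array, where the difference was 0.511 to 0.668. Without the E5A line the difference was 0.292. Of the 29 matrix proteases and inhibitors MMP3 was the 1 that passed, MMP1 being at 0.17, MMP2 at −0.24 and ADAMTS1, a secreted protease that passed no test (adjusted p = 0.429), at −0.42.

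THY1 (CD90), a surface glycoprotein found on fibroblasts and on some melanoma cells, had 8.49, 8.56, 8.30 and 8.73 in NME1-wild-type cells. It had 8.46, 8.41, 8.29 and 8.64 with E5A, 7.82, 7.76, 7.68 and 8.04 with K12Q and 7.46, 7.50, 7.17 and 7.72 with P96S. E5A overlapped with the NME1-wild-type line and the other mutants were lower. Parent arrays had 8.16 to 8.57, which also overlapped with the NME1-wild-type arrays. The pooled difference of 0.61 (1.52-fold, SE 0.111, adjusted p = 0.0298) consisted of 0.07 from E5A, 0.70 from K12Q and 1.06 from P96S, and the call was lost in 6 of 16 other settings and in 13 of 20 fits that left out 1 array, where the difference was 0.539 to 0.683. Without the P96S line it was 0.383. THY1 is one of 10 measured fibroblast markers, all 10 of them above 0, against 57.8% over all features, with a median of 0.16. Its list had a summed level of 63.1 to 66.0 on the NME1-wild-type arrays and 61.0 to 64.9 on the mutant arrays, and the other 9 markers ran from 0.01 for COL1A1 to 0.43 for COL3A1 (unadjusted p = 0.00253, adjusted p = 0.951), with LUM at 0.20 and S100A4 at 0.19. The part of these markers in the result was not tested.

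The differences by line, plotted side by side, show which pooled differences were shared by the 3 mutants. LRP1B and MAGEA1, both low on the array in the mutant lines, had about the same difference from each line. NETO2 and TRIML2 had 3 differences of at least 1.01 that differed in size. EREG, MMP3 and THY1 each had 1 line with a difference of 0.35 or less.

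**Figure D3:**
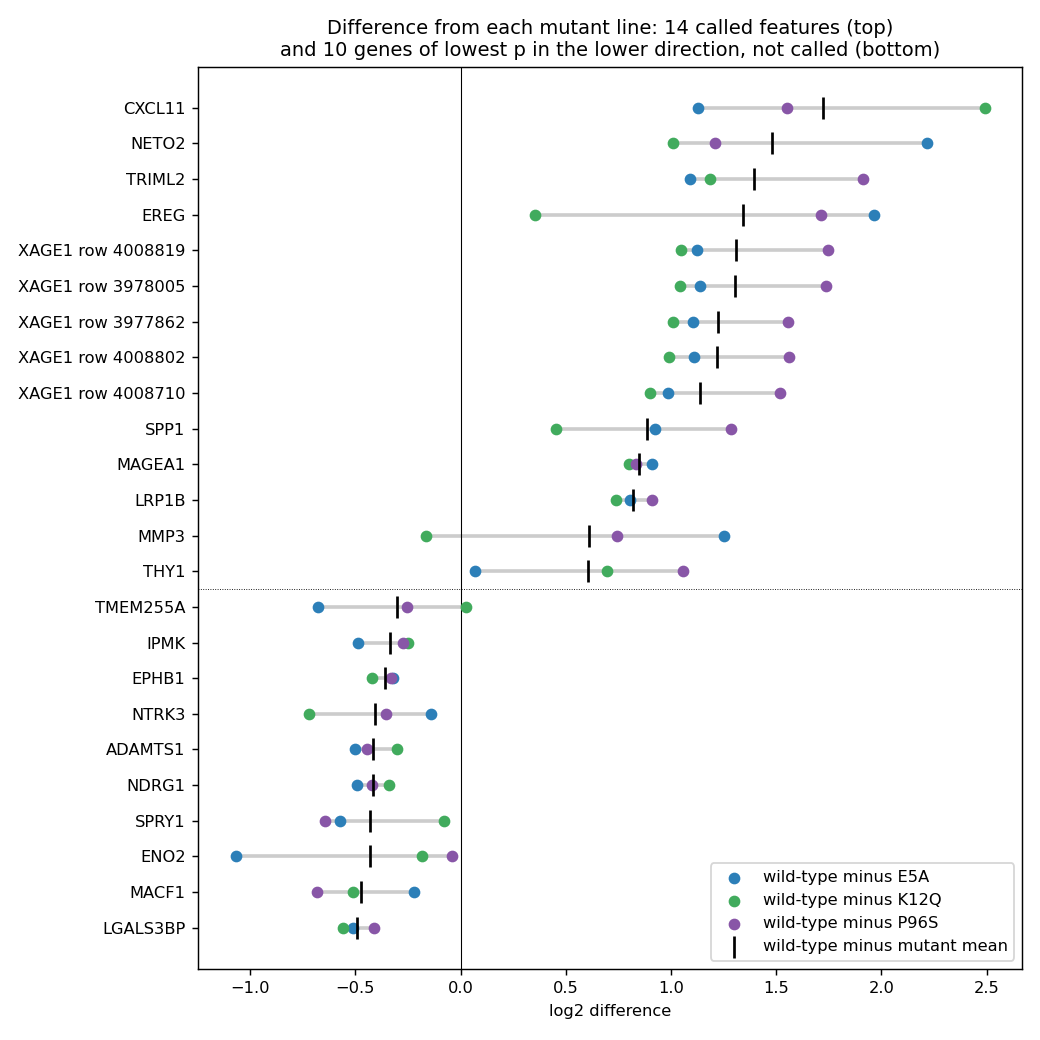
Log2 difference of the NME1-wild-type mean from each mutant line mean (coloured points) and from the pooled mutant mean (bar), with the 14 features that passed and, below them, 10 genes of lowest p in the other direction on the y axis, and log2 difference on the x axis. The 3 points of MAGEA1 lie between 0.80 and 0.91, while those of MMP3 run from −0.16 to 1.25.

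How far the mutants differed from each other was tested without the NME1-wild-type mean, with the spread estimated on all 20 arrays. 93 features (0.506%) passed the F test among the 3 mutant lines with at least 1.5-fold between the highest and the lowest line. An unadjusted p under 0.05 was found for 703 (3.82%), where chance alone gives about 5%. NETO2, TRIML2, EREG, MMP3 and THY1 were in both sets, and the other 9 of the 14 were not in the set among mutants. The count among mutants depended on the arrays used: it was 60 without NME1-K12Q replicate 3, 54 without NME1-K12Q replicate 4, 207 without the 3 arrays of narrowest scale and 707 with array weights. ALDOC, a glycolytic aldolase, had the smallest p among the mutants (adjusted p = 4.64e-06). It averaged 6.93 in NME1-wild-type cells, 7.55 with E5A, 5.88 with K12Q and 7.11 with P96S, and the NME1-wild-type level was inside the mutants' range with a pooled difference of 0.08. SLC7A11, the cystine transporter, averaged 8.87 in NME1-wild-type cells, 8.35 with E5A, 9.43 with K12Q and 7.10 with P96S (adjusted p among mutants = 2.53e-05). Its pooled difference of 0.57 did not pass (adjusted p = 1.00), but was 1.14 and passed when K12Q, the highest line, was left out (adjusted p = 0.00938), and was −0.02 without P96S, the lowest. BMP2, a bone morphogenetic protein, FZD4, a Wnt receptor, and VIPR1, a receptor of vasoactive intestinal peptide, also passed among the mutants, and their pooled differences were 0.23, −0.05 and 0.21.

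**Figure D4:**
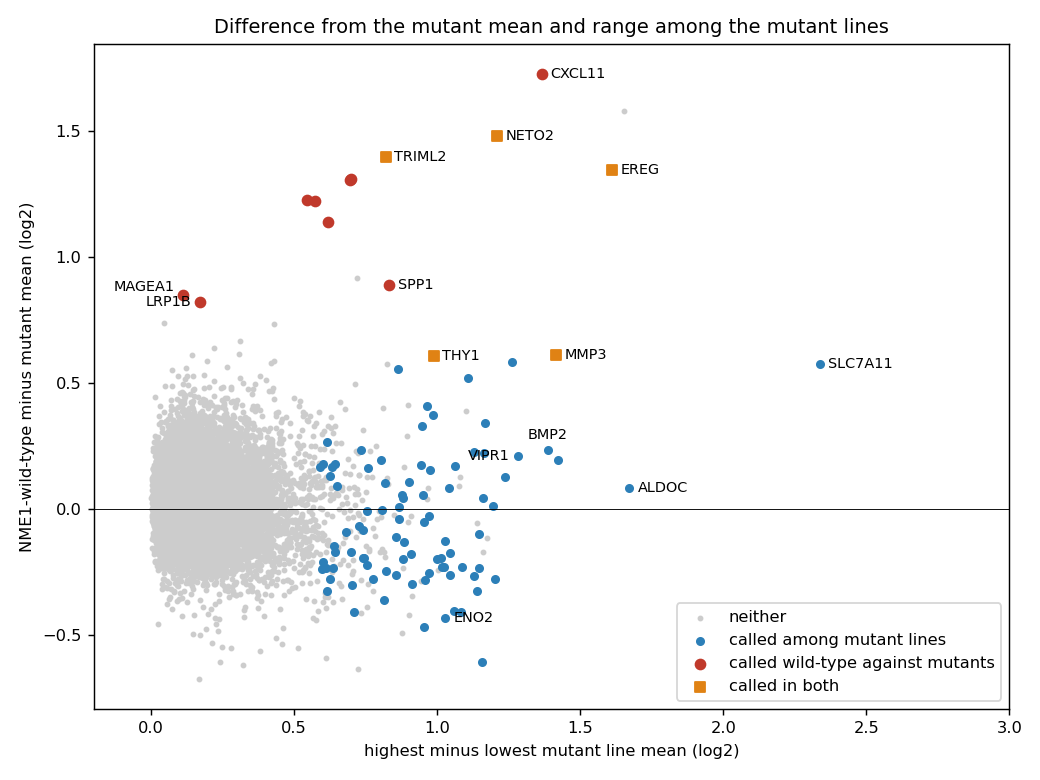
Log2 difference of NME1-wild-type from the mutant mean on the y axis against the log2 range between the highest and lowest mutant line mean on the x axis, 1 point per feature. LRP1B and MAGEA1 have a small range among mutants for their difference, and ALDOC has a range of 1.67 with a difference near 0.

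Among genes lower in NME1-wild-type cells, 0 passed. LGALS3BP, a secreted glycoprotein that binds galectins, had the smallest p of the single genes, with 8.46, 8.47, 8.78 and 8.90 in NME1-wild-type cells, against 8.99 to 9.34 (median 9.13) in the mutant lines. The groups did not overlap, and the difference was −0.49 (SE 0.0948, adjusted p = 0.0517). NDRG1, a stress- and hypoxia-induced gene also described as a metastasis suppressor, had 10.82, 10.94, 11.06 and 11.29 in NME1-wild-type cells, against 11.31 to 11.69 (median 11.42) in the mutant lines. Its groups were also apart, with a difference of −0.42 (adjusted p = 0.186). EPHB1, an ephrin receptor, and IPMK, an inositol phosphate kinase, were likewise below all mutant arrays, at −0.36 and −0.33 (adjusted p = 0.436 and 0.779).

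Other genes of low p in this direction were ENO2, a neuronal enolase, at −0.43, NTRK3, the receptor of neurotrophin-3, at −0.41, and SPRY1, an inhibitor of growth factor signalling, at −0.43, all with an adjusted p of 0.187. ADAMTS1, TMEM255A and MACF1, a linker of microtubules and actin, were at −0.42, −0.30 and −0.47. The ENO2 difference came mostly from E5A (−1.07), with −0.18 from K12Q and −0.04 from P96S. Row 3442854, annotated to the glucose transporters SLC2A3 and SLC2A14 and chosen after its values were seen, had a difference of −0.55 with an adjusted p of 0.0181, and missed the fold threshold at 1.46-fold. On the other side COLEC12, a scavenger receptor, at 0.41 (adjusted p = 0.0989), and TYRP1, an enzyme of melanin synthesis, at 0.56 (adjusted p = 0.435), did not pass. All NME1-wild-type arrays of TYRP1, 4.36 to 4.76, were above the mutant arrays, 3.71 to 4.31.

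Genes of glycolysis and of the hypoxia response had mostly values below 0. Of these genes 0 passed the test, where 0.0762% of all features did. Of 19 measured glycolysis genes 18 were below 0, against 57.8% above 0 over all features, and the median was −0.11. ENO1 was at −0.10 and GAPDH at −0.04, and HK2, a hexokinase chosen after its value was seen, was at −0.48. HK2 had 8.15, 8.11, 8.43 and 8.87 on the NME1-wild-type arrays, lower in replicates 1 and 2, while GAPDH had 13.10 to 13.12. The list's summed level was 182 to 189 on the NME1-wild-type arrays and 185 to 195 on the mutant arrays, which overlapped. By line the median was −0.35 from E5A, −0.10 from K12Q and −0.04 from P96S. In the hypoxia list 18 of 23 members were below 0, with a median of −0.17, and NDRG1 at −0.42 and BNIP3, a mitophagy receptor, at −0.04. Here the medians by line were −0.49 from E5A, −0.01 from K12Q and 0.04 from P96S, and without the E5A line the pooled median was 0.04. E5A was the line far from 0, and the other two were near it.

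MHC class II presentation had a median of −0.16 over 8 genes, and 0 passed. CD74, the invariant chain, was at −0.26 and HLA-DPA1 at −0.23. The medians by line were −0.02 from E5A, 0.13 from K12Q and −0.56 from P96S, and the pooled median was 0.05 without P96S. MHC class I presentation had a median of 0.03 over 10 genes, with 0 passing, B2M at 0.33 and HLA-E at 0.01. The 14 measured metastasis suppressors had a median of −0.04, and 0 passed, with TIMP3, an inhibitor of metalloproteases, at 0.02.

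For the lists above and those that follow, a count of 0 is read against the 0.0762% of all features that passed. At this share lists of this size would hold almost no member, so a count of 0 says nothing particular to them. Lists close to the activities ascribed to NME1 had medians near that of all features. Nucleotide synthesis and salvage (29 genes, median 0.07), adenylate kinases (5, −0.01), and DNA repair with the SET complex (21, 0.03) had 0 members passing. Here RRM2, a ribonucleotide reductase subunit, was at 0.08, AK1 at 0.25 and SET at 0.09. Among the 30 cell cycle genes (median 0.03) 0 passed, with CCND1 (cyclin D1) at −0.01.

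In the melanoma state lists 0 members passed. The 13 melanocyte genes had a median of −0.0048, the 18 genes of the undifferentiated invasive state 0.06, and the 13 neural crest and glial genes 0.03. SOX10 was at −0.05, SNAI2, a neural crest transcription factor, at −0.04, and THBS1, a matricellular protein, at −0.02. Cadherins and mesenchymal transition (14 genes, median 0.01), extracellular matrix (25, −0.03) and integrins and focal adhesion (22, −0.06) also had 0 passing, with VIM at 0.00, SPARC at 0.00 and ITGA6 at −0.03.

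Signalling and stress lists gave the same count of 0. Medians were 0.05 over 22 TGF-beta targets and ligands, 0.03 over 25 Wnt and hedgehog components, −0.03 over 22 MAPK feedback genes, −0.04 over 15 cholesterol genes (by line 0.07 from E5A, 0.09 from K12Q and −0.25 from P96S, and 0.09 without P96S), −0.01 over 24 unfolded protein genes and 0.05 over 14 NRF2 targets. TGFBI was at −0.04, SFRP1 at 0.04, SPRY2 at −0.08, DHCR7 at −0.18, CALR at −0.02 and PGD at 0.06. For the lists with a member that passed, the medians were −0.01 for kainate receptors, −0.0036 for the reported motility genes, −0.04 for the lipoprotein receptors, 0.05 for EGF ligands and receptors, and −0.02 for proteases. The leukocyte, endothelial and keratinocyte medians were 0.00, 0.00 and 0.02, and the NME family median was 0.07.

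**Figure D5:**
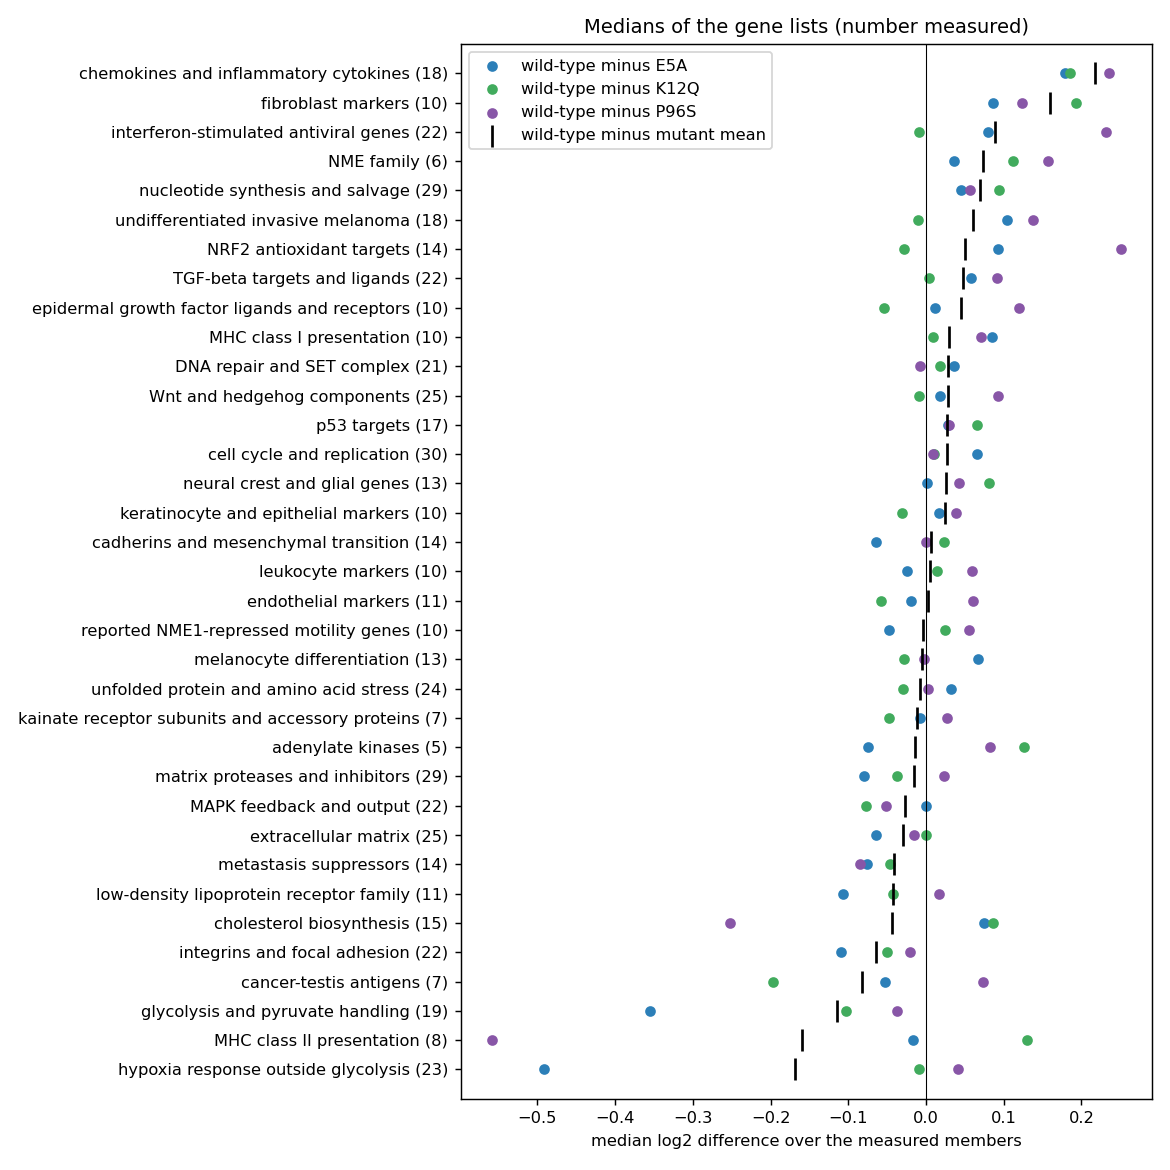
Median log2 difference over the measured members of each gene list on the x axis, with lists on the y axis: the bar is NME1-wild-type minus the pooled mutant mean and the coloured points are NME1-wild-type minus each mutant line. Chemokines are highest at 0.22, and the hypoxia, MHC class II and cholesterol lists show 1 line far from the other two.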

How the data were processed

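Total RNA from 5 WM793 lines, 4 technical replicate arrays each, was hybridised to Affymetrix Human Exon 1.0 ST arrays. The authors normalised the arrays with RMA in R, per the labels, and deposited log2 values, 1 per transcript cluster. The processing notes name RMA and limma without versions, and the genome build behind the rows is not given in the sources used here. Of 18708 rows, 14735 had 1 gene symbol in the platform annotation, 2873 several and 1100 none. For genes with several rows 1 was kept, which dropped 324 rows and left 18384 features, and rows with several symbols are given by number.

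A mean per line was fitted to all 20 arrays with limma 3.58.1 (R 4.3.3, 15 residual degrees of freedom). The difference of NME1-wild-type from the mean of the 3 mutant line means was tested two-sided with Benjamini-Hochberg adjustment over all features, and a feature passed at an adjusted p under 0.05 and at least 1.5-fold. Mutant lines were compared with an F test in the same fit. Every adjusted p in the text comes from limma.

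Named genes were, by rule, the NME family, features that passed, genes of lowest p filling up to 10 per direction, up to 4 passing members and the 2 highest others of each list, the 8 genes of lowest p among the mutants, and genes with the widest gap between the groups. Genes outside it are identified as such, or illustrate a list range. The contrast and the 35 gene lists were chosen with earlier results of these data known. The replicate number was not used as a block, since the labels do not say that it marks a shared batch and not every pair of equal number deviated together. Alternatives were other normalisation, centring, array weights, filters, mutant lines left out and each array left out.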

Additional observations from a re-analysis of the deposited data

Results flagged for a closer look

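In 19 of 404 combinations of a line and a gene, 1 of the 4 arrays stood far from the other 3, where chance gives about 5%. NME1-wild-type replicate 1 was low for FZD4 (6.76) and high for KRT8 (6.93), and NME1-wild-type replicate 2 was low for ENO1 (12.7). NME1-E5A replicate 1 was high for AK1 (8.55), HLA-DPA1 (10.4) and SPP1 (5.87), and low for L1CAM (9.56). NME1-E5A replicate 2 was low for CALR (11.0), replicate 3 high for CLDN5 (6.68), and replicate 4 high for GRIK5 (5.84) and NME9 (4.68). NME1-K12Q replicate 2 was low for NETO2 (5.60) and SPP1 (5.66), and replicate 4 high for HLA-E (9.58). NME1-P96S replicate 2 was low for NME4 (9.50). NME1-P96S replicate 3 was high for CTAG2 (7.43) and NME8 (3.32), and low for ADAMTS1 (8.58) and SNAI2 (10.5).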

How the results depend on the processing

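The count of 14 features was 2 when tested against 1.5-fold, 0 with line means as samples, and 23 (18 higher, 5 lower) without the NME1-K12Q line. In the other 13 settings it was 11 to 18, and with 1 array left out 8 to 15. With array weights 13 were higher and 4 lower. The count among mutants of 93 was 167 with the interquartile range as a covariate, 207 without the 3 narrowest arrays and 707 with array weights, and 54 to 134 with 1 array left out. Arrays of equal number in different NME1 lines had correlated deviations for replicate 1 (0.278 to 0.596 over 6 pairs) but not in every pair of the others (lowest −0.721). The median was 0.263 over 24 pairs of equal number and −0.068 over 72 of different number, and 9 of 16 arrays correlated best with an equal number, so a partial pairing is a hint from the data and not in the labels. With the replicate number as a block the counts were 15 and 114, and the NME1 row had p = 0.625 by exact sign flips, where the smallest possible is 0.125. The NME1 row's difference was −0.0044 with quantile normalisation, and 0.0107 to 0.0612 with 1 array left out.

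Signs turned, none of them in a called value, for row 3726960 (−0.0019 with array weights), BMP2 and VIPR1 (−0.0512 and −0.201 without the E5A line), SLC7A11 (−0.0243 without the P96S line) and CD68 (−0.0059 without NME1-wild-type replicate 2, to 0.244 without replicate 3). No call of NETO2, TRIML2, EREG or LRP1B was lost in any fit that left out 1 array. The cause of these changes was not tested. Each construct rests on 1 line.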

Other observations

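Some features outside the rule for named genes, chosen after their values were seen are given here by their values. Row 3967817, annotated to the VCX genes of the X chromosome, which are expressed in testis, differed by 0.73 and did not pass (adjusted p = 0.0879). It passed when arrays were centred on their median (0.71, adjusted p = 0.044), with the interquartile range as a covariate (0.72) and without the NME1-E5A line (0.85). Row 2950277, annotated to HLA-DMA and HLA-DMB, which load peptides on MHC class II, differed by −0.61 (adjusted p = 0.156), and was lower by the criteria with the replicate number as a block (−0.61, adjusted p = 0.00986), with array weights (−0.70) and without the NME1-K12Q line (−0.85).

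Without the NME1-K12Q line, the genes that passed in addition included RARB, a retinoic acid receptor, at 0.77, GDA, a guanine deaminase, at 0.66, and AKR1C3, an aldo-keto reductase, at 0.79, with SPRY1 at −0.61. CENPA, a centromere histone, and row 2899194, annotated to the histones H2BC6 and H2BC9, had every NME1-wild-type array above every mutant array, with differences of 0.28 and 0.48 that did not pass. Row 2357193, which has no symbol here, had a difference of 1.58, large for the array, and did not pass (adjusted p = 0.710), at 1.78 from E5A, 2.30 from K12Q and 0.65 from P96S.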
